A study of Mus musculus with 4 samples.

Results

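The 6 genes of epithelial adhesion, Epcam, Cdh1, Cldn1, Itgae, Itgb7 and Cd24a, were followed through the dendritic cell classes of the mouse liver. They are 6 of the 32285 genes measured, with Krt19 and Krt7 kept beside them as a check for biliary cells. The genes were picked by name with the difference between both diet times in type 2 conventional dendritic cells (cDC2) already known, so that difference is given as a description and supports nothing else. Of the chromatin data, peaks within 10 kb of a start site of these genes were taken, which were 30 of 142799 peaks in the first library and 32 of 147725 in the second.

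The mice were of the C57BL/6J strain and received chow with 0.1% DDC (3,5-diethoxycarbonyl-1,4-dihydrocollidine, a porphyrinogenic compound that injures the bile ducts) for 0 days (D0) or 5 days (D5). Live CD45+ CD64- CD11c+ cells were sorted from liver, and their nuclei gave RNA and open chromatin from the same droplet (10x Multiome). The 4 samples are thus the RNA layer and the chromatin layer of 1 library per day. The labels give neither the number of mice behind a library nor their age. With 1 library per day there was no replicate and no test between days, every difference between D0 and D5 is also a difference between these 2 libraries, and each 95% interval below covers counting error only.

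Epithelial cells hold together through cadherins, claudins and adhesion proteins such as EpCAM, and some leukocytes use the same molecules at epithelial surfaces. E-cadherin, encoded by Cdh1, binds itself on the neighbouring cell, ties to actin through catenins, and is also a ligand of the integrin αEβ7 (Itgae with Itgb7) and of the lectin KLRG1. Langerhans cells of the epidermis carry EpCAM, E-cadherin and Claudin-1, while αE (CD103) and CD24 are familiar surface markers of type 1 conventional dendritic cells (cDC1).

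Start-site sequences are shown because the chromatin peaks described further on cover them. RefSeq promoters of the GRCm38.p6 assembly (250 bases before to 50 after the start) matched 3 of the 6 genes, namely Epcam at chr17:87635729-87636028 on the plus strand, Cldn1 at chr16:26371790-26372089 on the minus strand and Itgb7 at chr15:102231886-102232185 on the minus strand. Capitals mark matches on either strand to 5 motifs: the E2 box CAGGTG (reverse CACCTG), the GC box GGGCGG (reverse CCGCCC), the PU.1 core GAGGAA (reverse TTCCTC), the Runx core TGTGGT (reverse ACCACA) and the AP-1 site TGANTCA. No marked matches overlap.
Epcam: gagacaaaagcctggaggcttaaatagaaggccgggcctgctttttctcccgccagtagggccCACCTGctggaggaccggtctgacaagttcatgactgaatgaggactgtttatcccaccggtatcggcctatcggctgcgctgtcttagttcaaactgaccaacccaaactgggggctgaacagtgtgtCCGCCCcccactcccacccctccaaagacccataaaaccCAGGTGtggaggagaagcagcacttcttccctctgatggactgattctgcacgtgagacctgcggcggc
Cldn1: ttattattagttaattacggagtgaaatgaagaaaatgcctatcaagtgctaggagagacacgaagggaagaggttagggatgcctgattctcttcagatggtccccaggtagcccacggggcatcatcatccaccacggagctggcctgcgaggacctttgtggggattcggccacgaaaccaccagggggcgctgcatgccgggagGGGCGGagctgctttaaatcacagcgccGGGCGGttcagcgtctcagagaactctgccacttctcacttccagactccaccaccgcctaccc
Itgb7: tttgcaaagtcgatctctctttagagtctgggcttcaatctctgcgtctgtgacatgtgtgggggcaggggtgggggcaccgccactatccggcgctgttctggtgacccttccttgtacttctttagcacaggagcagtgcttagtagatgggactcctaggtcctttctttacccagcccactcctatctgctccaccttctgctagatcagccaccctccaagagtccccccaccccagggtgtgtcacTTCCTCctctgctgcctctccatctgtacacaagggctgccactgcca

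The Epcam window held the E2 box 2 times, at 187 and 19 bases before the start, and 1 GC box between them. Among 32851 RefSeq promoters of the same length, 20.2% held CAGGTG and 35.7% held GGGCGG on either strand. Cldn1 had 2 GC boxes and Itgb7 a single PU.1 core, a word found in 28.3% of promoters. Neither TGTGGT (16.8% of promoters) nor TGANTCA (7.81%) occurred in these 3 windows. Their G+C content was 57% (Epcam), 56% (Cldn1) and 56.3% (Itgb7), against a median of 52.7% over all promoters. A match is only a string of letters in this window.

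The RNA layers held 16260 (D0) and 27873 (D5) called nuclei, with a median of 1799 and 2790 unique molecular identifiers (UMIs) each, so D5 was the deeper library. After filters on depth, mitochondrial UMIs and doublets, 10982 and 19832 nuclei were kept. Clusters were named only from marker lists, each name ending in -like, and clusters that missed the naming thresholds stayed unnamed. A named cluster can also carry markers of a second class, as the T cell-like one had all 8 NK cell markers raised and the preDC-like one 6 of 8 pDC markers. The cDC2-like class held 2239 and 8574 nuclei, preDC-like 234 and 1570, cDC1-like 1714 and 2972, Ccr7+ DC-like 302 and 968, and plasmacytoid (pDC-like) 2322 and 1984. NK cell-like, T cell-like and macrophage-like nuclei were present as well, and 591 barcodes were called in both libraries. Levels are counts-per-million values (CPM) of the UMIs summed over a class. In cDC2-like nuclei the median log2 D5/D0 over 13140 genes with at least 20 UMIs in the 2 sums was −0.18, in cDC1-like nuclei −0.23, and the values below are to be read against these medians.

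Epcam, a homophilic adhesion protein of epithelia, had 95 UMIs (20.5 CPM) in cDC2-like nuclei of the D0 library and 1376 UMIs (55.0 CPM) in those of the D5 library. The level was thus 2.69-fold higher at D5, a log2 D5/D0 of 1.43 (interval 1.13 to 1.74). Nuclei with at least 1 Epcam UMI made up 3.62% of the class at D0 and 11.9% at D5. With every nucleus thinned to 1000 UMIs these shares were 2.19% and 4.65%, against 0.15% and 1.86% in macrophage-like nuclei thinned alike (0.900% and 2.80% unthinned, at median depths of 1810 and 2747.5 UMIs against 1884 and 2690 in cDC2-like nuclei). The free RNA of barcodes with 1 to 100 UMIs, which hold no called nucleus, carried Epcam at 16.6 CPM at D0 and 32.6 CPM at D5. The cDC2-like level therefore lay close to free RNA at D0, within counting error, and above it at D5.

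The other named dendritic cell classes had lower Epcam values. At D0 the preDC-like one could not be separated from cDC2-like nuclei by counting error (log2 difference −0.79, −2.45 to 0.48). In cDC1-like nuclei it went from 6.00 to 11.7 CPM, a log2 D5/D0 of 0.96 (0.33 to 1.65), and in pDC-like nuclei from 11.1 to 17.2 CPM, 0.63 (0.05 to 1.23). The preDC-like value, 11.8 CPM on 5 UMIs against 17.4 CPM, had an interval across 0. Every one of these levels lay below that of free RNA on the same day, although the pDC-like and preDC-like intervals overlapped that of free RNA at D0. The ranking of Epcam over all classes was headed at D0 by T cell-like nuclei (62.3 CPM), with NK cell-like (27.1 CPM) and cDC2-like overlapping in their intervals behind them. At D5 cDC2-like nuclei were level with T cell-like ones (52.2 CPM), and NK cell-like nuclei came next at 31.5 CPM. The macrophage-like value went from 4.51 CPM on 6 UMIs to 11.6 CPM, a log2 D5/D0 of 1.37 (0.10 to 2.91). A ratio of the cDC2-like size was thus not limited to cDC2-like nuclei. Both macrophage-like levels, however, lay below those of free RNA (16.6 and 32.6 CPM), which were themselves higher at D5.

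Cdh1 showed the widest gap between days among the 6 genes in cDC2-like nuclei. There were 22 UMIs at D0 (4.74 CPM) and 925 at D5 (37.0 CPM), 7.81-fold higher, with a log2 D5/D0 of 2.96 (2.36 to 3.65). At D0 no cDC2-like nucleus held more than 1 Cdh1 UMI. At D5 156 nuclei did, up to 7 UMIs in a single nucleus. The share with a UMI was 0.983% at D0 and 8.25% at D5, or 0.491% and 3.16% after thinning, and in thinned macrophage-like nuclei 0.450% and 0.414% (unthinned 0.600% and 1.35%). Free RNA held Cdh1 at about the same level on both days, 19.7 and 18.2 CPM, so the cDC2-like level lay below free RNA at D0 and above it at D5.

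Plasmacytoid dendritic cells, the interferon-producing lineage, carried Cdh1 on both days and in the opposite direction. The pDC-like level was 58.6 CPM (227 UMIs) at D0 and 40.8 CPM (149 UMIs) at D5, a log2 D5/D0 of −0.52 (−0.83 to −0.22). At D0 this was 12.4-fold above cDC2-like nuclei, the log2 ratio of both classes being 3.63 (2.99 to 4.33). At D5 that ratio was 0.14 (−0.12 to 0.39), so the classes could no longer be separated by counting error. PreDC-like nuclei, the cluster with markers of dendritic cell precursors, lay between at D0 with 16.5 CPM on 7 UMIs, above cDC2-like nuclei by 1.80 log2 units (0.33 to 3.08). Their D5 value was 31.0 CPM (132 UMIs), and the interval of their D5/D0 ratio spanned 0 (0.90, −0.18 to 2.25) except under TMM scaling (1.18, 0.09 to 2.52). Cdh1 was near the floor in cDC1-like nuclei at 1.92 CPM (8 UMIs) and 2.498 CPM (25 UMIs), and lower at D5 in NK cell-like nuclei (20.1 to 9.27 CPM, −1.11, −1.97 to −0.31). The NK cell-like level lay close to that of free RNA at D0 and below it at D5.

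**Figure D1:**
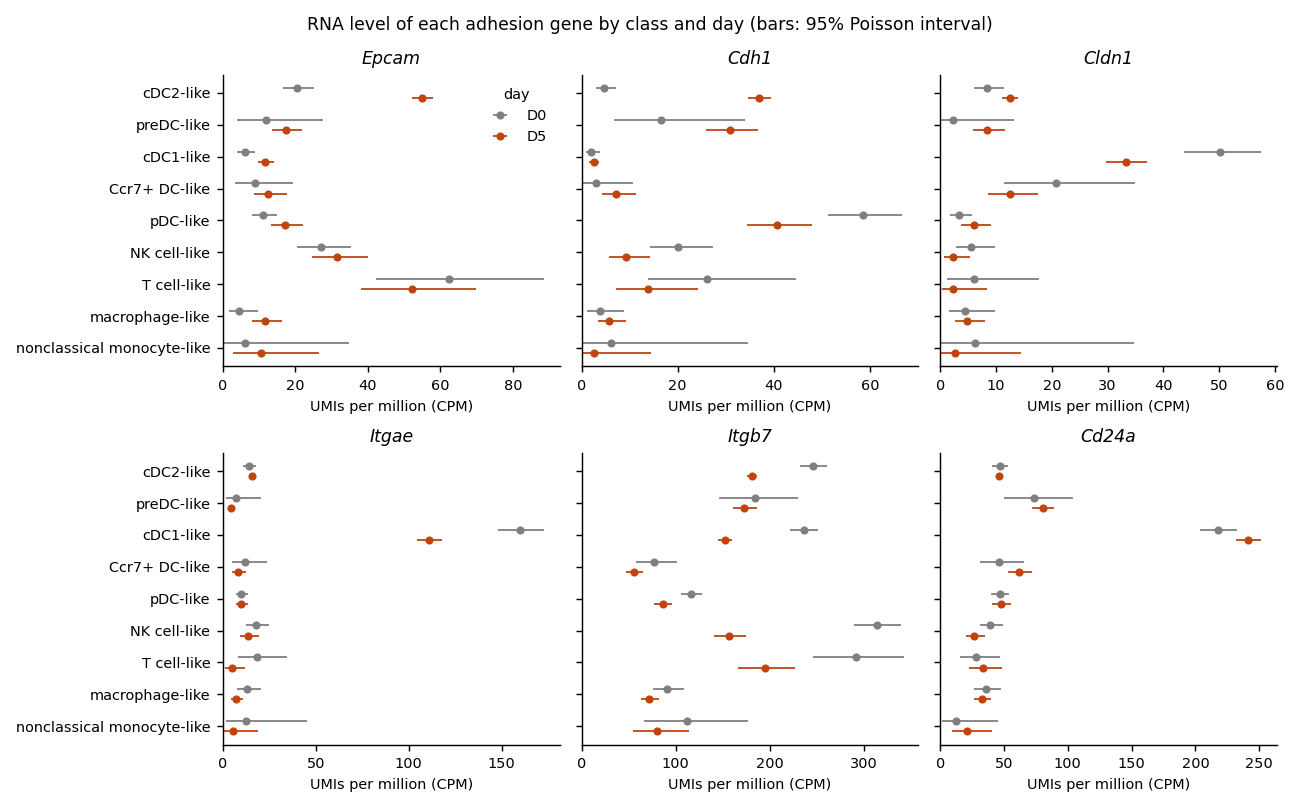
RNA level of each of the 6 genes in CPM by marker-named class, at D0 and D5, with exact Poisson 95% intervals as bars. Cdh1 in cDC2-like nuclei went from 4.74 to 37.0 CPM and reached the pDC-like range. Among the named dendritic cell classes, Itgae and Cldn1 were highest in the cDC1-like one.

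The cDC2-like class joined 4 clusters, led by Tnfsf9, Tnip3 and Mgl2, by Il1r2, Dab2 and Ifitm1, by Sirpb1a, Skint3 and Ffar2, and by the cell-cycle genes Top2a and Pclaf. Their makeup differed by day, the Il1r2-led cluster holding 355 of 2239 nuclei at D0 and 2770 of 8574 at D5. Cdh1 was higher at D5 in each cluster, from 3.55 to 27.4 CPM in the Tnfsf9-led, 5.98 to 44.0 CPM in the Il1r2-led, 5.55 to 44.4 CPM in the Sirpb1a-led and 6.53 to 36.6 CPM in the cycling one. The log2 values were 2.95, 2.88, 3.00 and 2.49, with every interval above 0, on 3 to 8 UMIs per cluster at D0. Epcam was likewise higher in each, with log2 values of 1.44, 1.93, 0.96 and 1.60 in the same order and all intervals above 0. The Sirpb1a-led cluster had the highest Epcam level at D0, 33.3 CPM, and the Il1r2-led one at D5, 68.3 CPM, overlapping the Sirpb1a-led cluster (64.7 CPM). Weighting the 4 clusters equally, an alternative chosen after the data were seen, gave 2.82 for Cdh1 and 1.44 for Epcam. An unnamed cluster with 3 of 7 cDC2 markers, led by Adgrl3 and Frmd5 (358 and 399 nuclei, 3.26% and 2.01% of those kept), had Epcam at 33.4 and 48.3 CPM (0.53, −0.22 to 1.33) and Cdh1 at 4.78 CPM (3 UMIs) and 9.66 CPM (11 UMIs).

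**Figure D2:**
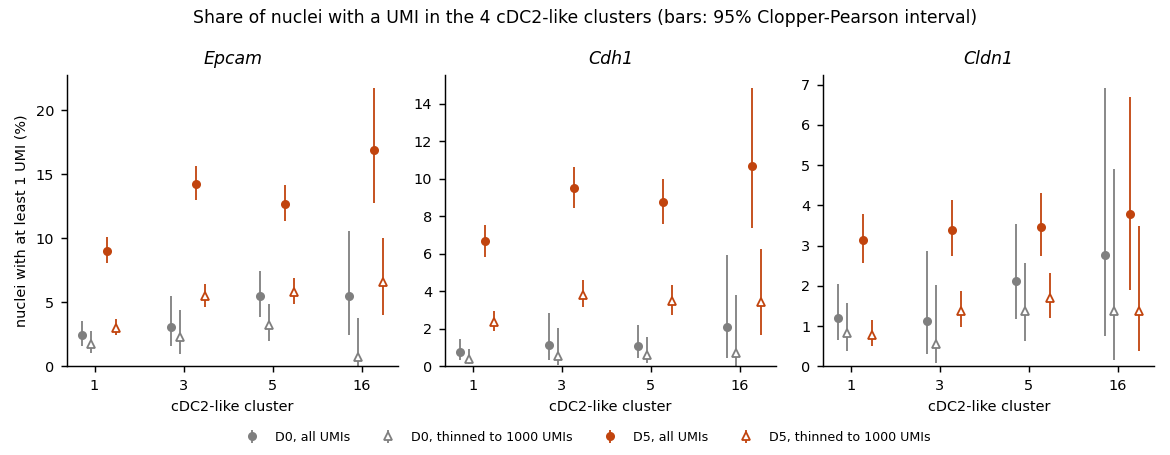
Percentage of nuclei with an Epcam, Cdh1 or Cldn1 UMI in the 4 clusters that make up the cDC2-like class, at D0 and D5. Shares are drawn over all UMIs and after thinning, with exact binomial 95% intervals. The Cdh1 level in CPM, which is not drawn, lay between 3.55 and 6.53 in all 4 clusters at D0 and between 27.4 and 44.4 at D5.

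Cldn1 encodes Claudin-1, a strand-forming protein of tight junctions. It was carried mainly by cDC1-like nuclei among the named dendritic cell classes, at 50.2 CPM (209 UMIs) at D0 and 33.3 CPM (333 UMIs) at D5, a log2 D5/D0 of −0.59 (−0.85 to −0.34). The share of cDC1-like nuclei with a Cldn1 UMI was 8.93% and 9.29%, and after thinning 5.25% and 3.33%. In cDC2-like nuclei it was 8.40 CPM (39 UMIs) and 12.5 CPM (313 UMIs), a log2 D5/D0 of 0.58 (0.09 to 1.09) whose interval included 0 without doublet removal (0.33, −0.20 to 0.89) or after thinning (0.26, −0.39 to 0.96). It was 1.30 (0.39 to 2.38) when nuclei of at least 2000 UMIs were clustered again, an alternative chosen after the data were seen. The cDC1-like level was 5.97-fold that of cDC2-like nuclei at D0 and 2.66-fold at D5. Both cDC2-like levels lay below free RNA, which held Cldn1 at 15.9 and 15.01 CPM, but the intervals overlapped on both days.

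Within cDC1-like nuclei Cldn1 was lower at D5 in the P3h2-led cluster (−0.60, −0.93 to −0.27) and the Tlr11-led cluster (−0.82, −1.35 to −0.29). The cycling cluster, on 19 and 43 UMIs, gave 0.12 (−0.69 to 0.98). One unnamed cluster, led by Il12b, Mab21l3 and Ccl22 and carrying markers of both Ccr7+ and type 1 dendritic cells, had Cldn1 among its 10 leading genes. Its 235 nuclei at D5 held 82 Cldn1 UMIs, or 102 CPM, and 55 of them (23.4%) had at least 1. At D0 it had 24 nuclei, too few for a value. Cldn1 was left out of the genes used for clustering. The cluster is pointed out here for its Cldn1 level, so this level is a description and tests nothing.

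Itgae encodes αE, known as CD103, which pairs only with β7. It was 160 CPM (666 UMIs) in cDC1-like nuclei at D0 and 111 CPM (1110 UMIs) at D5, a log2 D5/D0 of −0.53 (−0.67 to −0.39). Relative to cDC2-like nuclei this was 11.6-fold at D0 and 7.02-fold at D5. The cDC2-like level was 13.8 CPM (64 UMIs) and 15.8 CPM (395 UMIs), with an interval across 0 (0.20, −0.19 to 0.60) that lay above 0 under TMM scaling (0.48, 0.09 to 0.88), and below that of free RNA (50.3 and 26.5 CPM). The 4 cDC2-like clusters did not move together. In the Il1r2-led cluster Itgae was 8.97 CPM on 6 UMIs at D0 and 23.0 CPM on 181 UMIs at D5, a log2 D5/D0 of 1.36 (0.21 to 2.82), while in the Sirpb1a-led cluster it was 25.4 and 16.7 CPM, −0.60 (−1.19 to 0.02). In cDC1-like nuclei the P3h2-led (−0.45) and Tlr11-led (−0.69) clusters lay below 0 and the cycling one (0.23, −0.28 to 0.76) did not.

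Itgb7, the β7 chain that also pairs with α4 (Itga4) to bind the gut addressin MAdCAM-1, was spread over all classes. In cDC2-like nuclei it was 246 CPM (1143 UMIs) at D0 and 181 CPM (4525 UMIs) at D5, a log2 D5/D0 of −0.44 (−0.54 to −0.35). The cDC1-like values were 236 and 152 CPM (−0.63, −0.75 to −0.52), and the pDC-like values 117 and 86.2 CPM (−0.44, −0.65 to −0.23). The NK cell-like values were 314 and 157 CPM (−0.997, −1.19 to −0.80), and free RNA 269 and 178 CPM. PreDC-like nuclei, at 184 and 173 CPM, had an interval across 0 (−0.43 to 0.27). Scaling by TMM moved every cDC2-like RNA log2 value by 0.28 and DESeq2 size factors by 0.18, and Itgb7 there was then −0.16 and −0.27, still below 0.

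Cd24a encodes CD24, a small glycosylated surface protein of many epithelial and immune cells. It was 218 CPM (907 UMIs) and 242 CPM (2417 UMIs) in cDC1-like nuclei, against 46.5 CPM (216 UMIs) and 46.4 CPM (1161 UMIs) in cDC2-like nuclei. The cDC1-like level was thus 4.68-fold (D0) and 5.20-fold (D5) that of cDC2-like nuclei. The cDC2-like log2 D5/D0 was 0.00 (−0.21 to 0.21), or 0.28 (0.07 to 0.49) under TMM scaling. In cDC1-like nuclei it was 0.15 (0.04 to 0.26), but −0.063 without doublet removal. PreDC-like nuclei were second among the named dendritic cell classes at 73.3 and 80.2 CPM, and the highest level of any class at D5 was 306 CPM in 90 neutrophil-like nuclei, whose interval overlapped that of cDC1-like nuclei. Free RNA held Cd24a at 131 and 93.6 CPM, above the cDC2-like level on both days.

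Counted together, 2 of the 6 genes (Epcam and Cdh1) were at least 2-fold higher at D5 in cDC2-like nuclei, where 1.69% of all genes tested were, and none was 2-fold lower, as 9.03% of genes were (10.7% either way). Past the counting interval, 3 of 6 lay above 0 (11.8% of all genes) and 1 below (31.9%). Since the genes were picked with this contrast known, nothing is read from these counts. In cDC1-like nuclei 0 of 6 were at least 2-fold higher, against 0.933% of genes, and 0 of 6 lower, against 8.58%, with Epcam and Cd24a above 0 past the interval (10.4% of genes) and Cldn1, Itgae and Itgb7 below (36.2%). In pDC-like nuclei Epcam lay above 0 (8.68% of genes), and Cdh1 and Itgb7 below (21.7%). All 6 genes passed the 20-UMI filter in these classes. Among all genes tested in cDC2-like nuclei, Cdh1 stood at the 99.9th percentile of log2 D5/D0, Epcam at the 99.2nd, Cldn1 at the 94.6th, Itgae at the 79.9th, Cd24a at the 65.4th and Itgb7 at the 27.8th.

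Biliary epithelial cells carry Epcam, Cdh1, Cldn1 and Cd24a too, so markers of bile ducts were measured beside them. Krt19, the keratin of cholangiocytes, was at 0 UMIs in all dendritic cell classes on both days. The kept nuclei held 2 Krt19 UMIs at D0 and 1 at D5, all in macrophage-like nuclei. Krt7, the second biliary keratin, was found in cDC2-like nuclei with 28 UMIs (6.03 CPM) at D0 and 35 UMIs (1.40 CPM) at D5, a log2 D5/D0 of −2.11 (−2.87 to −1.34). In cDC1-like nuclei it had 27 UMIs (6.49 CPM) at D0 and 26 UMIs (2.60 CPM) at D5, and in pDC-like nuclei 3 and 0 UMIs. Free RNA held Krt7 at 3.87 and 1.48 CPM. The 8 biliary markers summed to 6.46 CPM (30 UMIs, 2 markers detected) and 2.56 CPM (64 UMIs, 4 detected). Krt7 made up 28 of the 30 and 35 of the 64 UMIs, and the 7 markers without it had 2 UMIs at D0 (0.431 CPM) and 29 at D5 (1.16 CPM), an interval across 0 (1.43, −0.55 to 4.54). Of these 29 UMIs 22 were of Sox9, a transcription factor of bile duct cells, in 12 cDC2-like nuclei, with 0 at D0. The lower bound of the Sox9 log2 D5/D0 was 0.024, just above 0. The part of biliary RNA in the Epcam and Cdh1 values was not tested beyond leaving out such nuclei. Krt19, Cftr and Tm4sf4 were at 0 on both days.

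At D5 a biliary-marker UMI was found in 4 of 707 cDC2-like nuclei with Cdh1 (0.566%) and in 49 of 7867 without it (0.623%). For Epcam the counts were 7 of 1023 (0.684%) and 46 of 7551 (0.609%). By UMIs, nuclei with Epcam held 13 biliary UMIs (3.78 CPM, 2.01 to 6.46), 3 of them Krt7. Those without it held 51 (2.37 CPM, 1.76 to 3.11), 32 of them Krt7. The same levels for Cdh1 were 2.81 CPM (1.13 to 5.79) with it and 2.53 CPM (1.92 to 3.28) without. Nuclei with either gene were somewhat deeper, with a median of 3168 UMIs for Cdh1 against 2655 without it, and 3010 for Epcam against 2650. Leaving out all nuclei with a biliary-marker UMI gave log2 D5/D0 values of 2.95 for Cdh1 and 1.44 for Epcam in cDC2-like nuclei. The 8 hepatocyte markers summed to 246 CPM at D0 and 137 CPM at D5 in the same class, all 8 detected on both days. Without nuclei holding such a UMI the values were 2.89 for Cdh1 and 1.40 for Epcam.

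Partners of the 6 proteins were taken from 7 lists of 67 genes. In cDC2-like nuclei 37 of the 67 passed the filter, 0 were at least 2-fold higher at D5 (1.69% of all genes) and 3 at least 2-fold lower, namely the vascular cadherin Cdh5 (5.17 to 2.20 CPM, −1.23) and the junctional adhesion molecules Jam2 (−1.43) and Jam3 (−1.29). These 3 of 37 stand beside 9.03% of all genes at least 2-fold lower in the class. Past the interval alone, and on the scale of total UMIs, 5 of 37 lay above 0 (11.8% of all genes) and 21 below (31.9%), and the median log2 D5/D0 was −0.35 beside −0.18 for all genes. The lists are too short to be set against those shares one by one. Of 10 adherens junction partners 5 lay below 0 and 0 above, and of 6 tight junction genes 4 lay below. Desmosome genes gave 1 above and 1 below of 2, integrin partners 4 below of 5, Epcam partners 1 above and 2 below of 3, regulators of the epithelial programme 1 above and 4 below of 8, and the Langerhans-type list 2 above and 1 below of 3.

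None of the 3 catenins named here, which belong to the E-cadherin complex inside the cell, was higher at D5 past its interval. The TMM shift of 0.28 is, however, larger than the distance of Ctnna1 and Ctnnb1 from 0. Ctnna1 (α-catenin) was 376 and 394 CPM in cDC2-like nuclei, 0.07 (−0.01 to 0.14), Ctnnb1 (β-catenin) 84.5 and 78.8 CPM, and Ctnnd1 (p120-catenin) 22.8 and 13.5 CPM, −0.76 (−1.08 to −0.43). Of the repressors that bind E2 boxes and silence Cdh1 in epithelia, Zeb2 was 790 CPM at D0 and 427 CPM at D5, −0.89 (−0.94 to −0.83), and Zeb1 167 and 140 CPM. Itga4, the alternative partner of β7, was 1012 and 647 CPM, −0.64 (−0.69 to −0.60). Cldn7, which binds EpCAM, had 1 and 3 UMIs, Klrg1, the second receptor of E-cadherin, 1 and 4, and Cd207, the Langerhans cell lectin langerin, 7 and 7.

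In cDC1-like nuclei 34 of the 67 genes passed, with 0 at least 2-fold higher (0.933% of all genes) and 3 at least 2-fold lower at D5 (8.58% of all genes). These were the collagen-binding integrin chain Itga1 (62.7 to 30.1 CPM, −1.06), the inhibitory sialic acid receptor Siglecg (58.6 to 28.8 CPM, −1.03) and Cd207 (20 and 15 UMIs, −1.68). Past the interval 3 lay above 0 (10.4% of all genes) and 21 below (36.2%), with a median of −0.35 beside −0.23 over all genes.

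The genes closest to each of the 6 in their levels were found over 19 points, which are the named classes on each day, among 9595 genes. These points share 2 libraries, so Pearson's r is a description. Itgae was closest to Tlr3 (r = 0.94), Xcr1 (0.92) and Naaa (0.88), of which Tlr3 and Xcr1 are known markers of cDC1. Itgb7 was closest to Anxa6 (0.90), Grap2 (0.85) and Actn4 (0.85), Epcam to Klrd1 (0.87), Hmgb1 (0.83) and Dad1 (0.80), and Cdh1 to Atp2b4 (0.83), Trp53i11 (0.82) and Panx1 (0.79). Cldn1 was closest to Fndc7 (0.84), Mtmr4 (0.83) and 9530059O14Rik (0.81), and Cd24a to Antxr2 (0.82), Arl6 (0.82) and Arl3 (0.80). Between the 6 genes the highest values were 0.62 for Cldn1 with Itgae, 0.58 for Itgae with Cd24a, 0.57 for Epcam with Cdh1 and 0.54 for Epcam with Itgb7.

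Within cDC2-like nuclei at D5 thinned to 1000 UMIs, Cdh1 was found in 22 of 399 nuclei with Epcam (5.51%) and in 249 of 8175 without it (3.05%). By cluster the shares were 1 of 100 nuclei against 2.42% in the Tnfsf9-led, 7.24% against 3.63% in the Il1r2-led and 6.25% against 3.29% in the Sirpb1a-led cluster. Itgae was found in 15 of 271 nuclei with Cdh1 (5.54%) and in 120 of 8303 without it (1.45%). By cluster it was 1 of 79 nuclei against 0.895% in the Tnfsf9-led, 8 of 106 (7.55%) against 1.91% in the Il1r2-led and 6 of 76 (7.89%) against 1.56% in the Sirpb1a-led cluster. Of the chains of the integrin itself, Itgb7 was found in 18 of 135 nuclei with Itgae (13.3%) and in 15.5% without it. Itgae in this class lay below free RNA on both days, so a single Itgae UMI cannot be told apart from background. Nuclei of a library are not replicates, and the classes they belong to were built from the same RNA.

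Chromatin accessibility near the genes was counted as fragments in regions with a peak in both libraries and scaled by all peak fragments of the class (CPM of fragments). In cDC2-like nuclei the 5 Cdh1 regions held 28.0 CPM (254 fragments) at D0 and 28.6 CPM (778 fragments) at D5, a log2 D5/D0 of 0.03 (−0.18 to 0.24), and the 2 Epcam regions 14.8 CPM (134 fragments) and 13.5 CPM (366 fragments), −0.14 (−0.42 to 0.16). Neither window thus differed between days past counting error, while the RNA of both genes did. For Cldn1 the window gave 16.6 and 13.5 CPM (−0.29, −0.57 to −0.01, an interval that reached 0 under 3 of 6 alternatives, among them −0.26 within 2 kb and −0.16 under TMM), for Itgae 62.2 and 63.8 CPM (0.04, −0.10 to 0.18), for Itgb7 68.8 and 71.6 CPM (0.06, −0.07 to 0.19) and for Cd24a 39.0 and 35.1 CPM (−0.15, −0.33 to 0.03). Each of the last 3 lay off 0 under 1 of 6 alternatives, Itgae (0.18, 0.04 to 0.32) and Itgb7 (0.20, 0.06 to 0.33) under TMM and Cd24a with all peaks of each library (−0.26, −0.43 to −0.08). The median log2 value over 107346 regions was −0.12 in this class, and 5.84% of regions lay above 0 past the interval and 12.2% below.

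For Cd24a and Cdh1 the windows of cDC1-like and cDC2-like nuclei differed more from each other than either did between days. Cd24a accessibility was 79.4 and 75.2 CPM in cDC1-like nuclei, above the 39.0 and 35.1 CPM of cDC2-like nuclei, in the order of its RNA. Cdh1 accessibility was 12.9 and 10.7 CPM in cDC1-like nuclei, below cDC2-like (28.0 and 28.6 CPM) and pDC-like nuclei (32.6 and 32.4 CPM). At D0 the Cdh1 windows of cDC2-like and pDC-like nuclei overlapped in their intervals, whereas their RNA levels lay 12.4-fold apart. Itgae accessibility was 72.9 and 76.2 CPM in cDC1-like nuclei and 62.2 and 63.8 CPM in cDC2-like nuclei, a narrower gap than in its RNA. For Epcam, T cell-like nuclei had the most open window at D0 with 43.0 CPM, then 22.1 CPM at D5, and they also had the highest Epcam RNA at D0. In cDC1-like nuclei the Epcam window was lower at D5 (20.2 to 15.8 CPM, −0.36, −0.67 to −0.04), but the interval reached 0 with all peaks of each library (−0.29, −0.60 to 0.02), under TMM (−0.26, −0.57 to 0.06) and in nuclei with at least 2000 peak counts (−0.30, −0.62 to 0.02). It stayed below 0 under the other 3 alternatives, among them the region within 2 kb of the start (12.5 to 8.34 CPM, −0.58, −1.002 to −0.16).

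**Figure D3:**
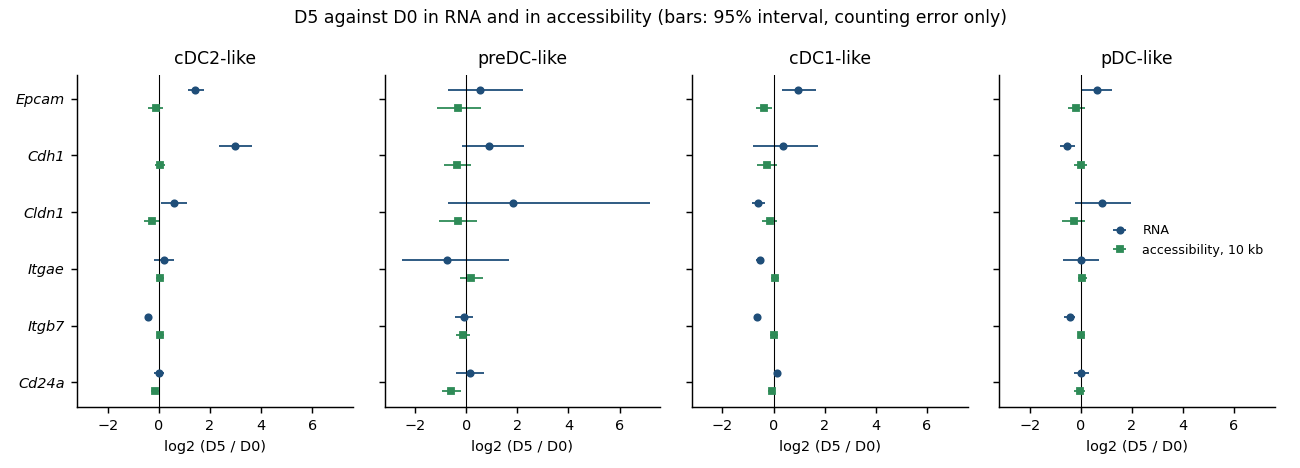
Log2 D5/D0 of RNA (circles) and of accessibility within 10 kb of the start (squares) for the 6 genes in 4 dendritic cell classes, with 95% intervals for counting error. In cDC2-like nuclei Cdh1 (2.96) and Epcam (1.43) lay far above 0 in RNA, with accessibility values of 0.03 and −0.14.

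Single regions showed more detail than whole windows. At the Cdh1 start (chr8:106603021-106603852) cDC2-like nuclei had 8.94 and 7.48 CPM, cDC1-like 5.28 and 4.86, pDC-like 13.2 and 11.4 and NK cell-like 17.1 and 13.3 CPM. In the gene body, the region 2490 bases past the start (chr8:106605870-106606799) had 11.9 and 12.8 CPM in pDC-like nuclei against 2.10 and 1.99 CPM in cDC2-like nuclei, a log2 difference of −2.51 and −2.69. It was also above the cDC2-like level in preDC-like (8.76 and 3.96 CPM), T cell-like (9.04 and 10.05 CPM) and NK cell-like nuclei (7.20 and 5.99 CPM). The region 8469 bases past the start (chr8:106611849-106612716) had the reverse order for cDC2-like and pDC-like nuclei, 10.9 and 12.3 CPM against 3.29 and 4.18 CPM. In cDC1-like nuclei it was 2.85 and 2.84 CPM. There cDC2-like nuclei exceeded cDC1-like ones by 1.94 log2 units (1.28 to 2.65) at D0 and 2.11 (1.58 to 2.70) at D5. The region also reached or came near the cDC2-like level in preDC-like (15.6 and 14.2 CPM) and macrophage-like nuclei (10.6 and 10.3 CPM), the latter with Cdh1 RNA at 3.76 and 5.82 CPM. So pDC-like and cDC2-like nuclei, close in Cdh1 RNA at D5, differed in which region of the gene body was open, and did so on both days.

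Itgae had the region with the clearest gain at D5, 3717 bases past the start (chr11:73094301-73095227). In cDC2-like nuclei it held 58 fragments (6.40 CPM) and 310 fragments (11.4 CPM), a log2 D5/D0 of 0.84 (0.43 to 1.27). This region was higher in pDC-like (21.8 and 25.7 CPM) and NK cell-like nuclei (21.03 and 27.4 CPM) and lower in cDC1-like nuclei (4.22 and 5.50 CPM), the class with the most Itgae RNA. The neighbouring region 2094 bases past the start was 34.9 and 33.2 CPM in cDC2-like and 37.5 and 40.1 CPM in cDC1-like nuclei, against 9.91 and 11.4 CPM in pDC-like nuclei. At the Itgae start itself cDC2-like nuclei had 1.32 and 1.43 CPM and cDC1-like nuclei 5.05 and 3.66 CPM.

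The Epcam start lies in a peak called only at D5 (chr17:87635787-87636199), which covers 242 of the 300 promoter bases printed above. At D5 it held 14.2 CPM in pDC-like nuclei, 3.71 CPM in preDC-like, 0.974 CPM in cDC2-like and 0.779 CPM in cDC1-like nuclei, and no peak was counted there at D0. The shared region next to it, over the downstream start sites, was 7.56 and 7.19 CPM in cDC2-like, 12.5 and 8.34 CPM in cDC1-like, 24.4 and 20.8 CPM in NK cell-like and 40.9 and 20.9 CPM in T cell-like nuclei. At the printed Cldn1 promoter, which lies wholly in its start-site region, cDC2-like nuclei had 13.5 and 11.3 CPM, cDC1-like 15.2 and 14.8 CPM and pDC-like 11.3 and 8.85 CPM, a far smaller range than that of Cldn1 RNA.

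Around Itgb7, whose printed promoter also lies in its start-site region, 1 region was lower and 1 higher at D5 in cDC2-like nuclei. The region at −3358 bases, upstream of the start, was 6.07 and 3.51 CPM (−0.79, −1.28 to −0.28). The one 455 bases past the start was 21.7 and 25.8 CPM in cDC2-like nuclei. In cDC1-like nuclei it was 14.9 and 20.3 CPM, a larger log2 D5/D0 of 0.45 (0.13 to 0.78). Itgb7 RNA was nevertheless lower at D5 in both classes. At the Cd24a start cDC2-like nuclei had 20.02 and 19.03 CPM and cDC1-like nuclei 45.3 and 44.7 CPM, a log2 difference of −1.18 and −1.23. Peaks called in a single library were 1 for Epcam, 3 for Itgae, 1 for Itgb7 and 1 for Cd24a, and were left out of the windows. Such regions were common, as 15383 of all 162879 regions had a peak only at D0 and 20280 only at D5. Nothing about these genes is therefore read from their single-library peaks. The outermost regions inside 10 kb were those of Itgae at 9375 and Cdh1 at 8469 bases past the start, and the nearest outside were at −11180 bases from Itgb7 (22.3 and 27.8 CPM in cDC2-like nuclei) and 11315 bases past Cd24a (3.92 and 2.96 CPM).

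**Figure D4:**
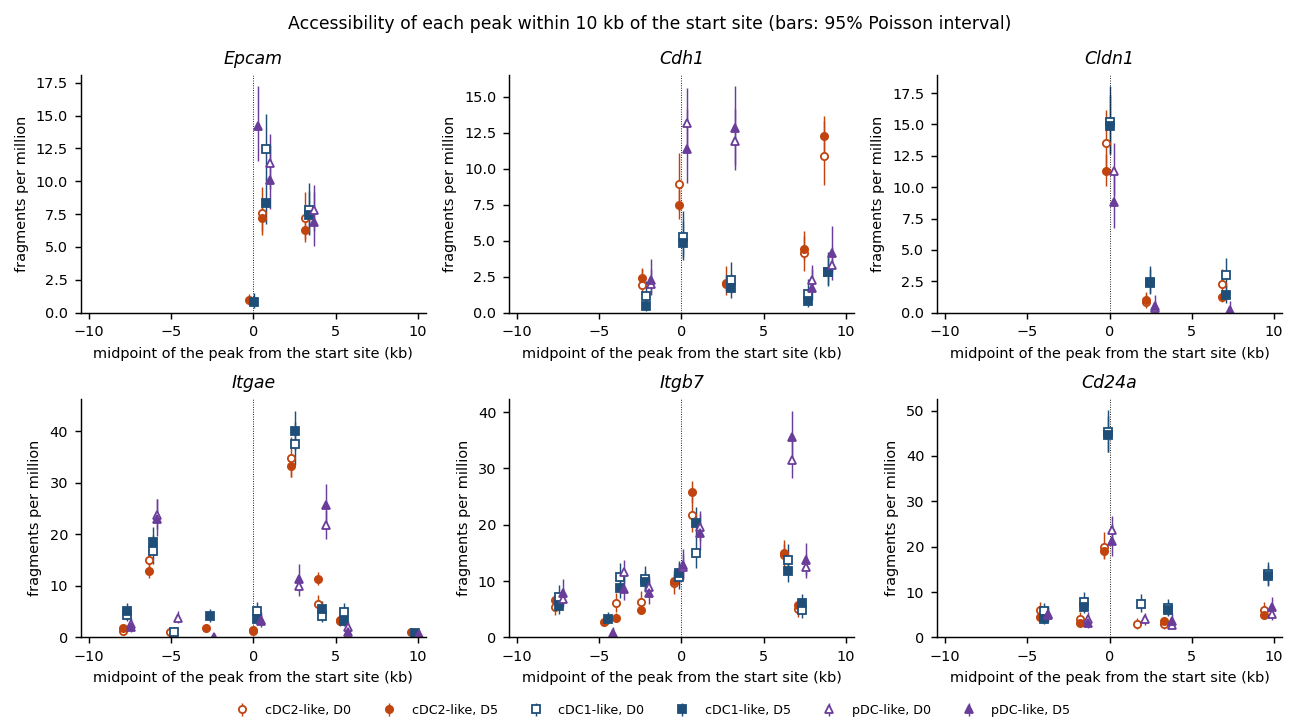
Accessibility of each region in CPM of fragments, by distance of its midpoint from the start site in kb, for cDC2-like, cDC1-like and pDC-like nuclei at D0 (open) and D5 (filled). Regions with a peak in a single library are drawn for that day only. The Cdh1 panel has a pDC-like high at the region 2490 bases past the start, with its midpoint at 2984 bases (11.9 and 12.8 CPM). A cDC2-like high lies at the region 8469 bases past it, with its midpoint at 8932 bases (10.9 and 12.3 CPM).

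Both layers came from the same nuclei, so accessibility was also compared between cDC2-like nuclei with and without an RNA UMI at D5. For Epcam the window held 19.2 CPM in nuclei with the RNA and 12.6 CPM in those without, a log2 difference of 0.61 (0.21 to 0.99). Itgae gave 89.6 against 62.7 CPM (0.51, 0.21 to 0.80) and Cd24a 44.7 against 33.8 CPM (0.40, 0.14 to 0.66). For Cdh1 the values were 33.0 and 28.1 CPM (0.23, −0.12 to 0.56), for Cldn1 19.1 and 13.3 CPM (0.52, −0.22 to 1.17) and for Itgb7 74.0 and 70.0 CPM (0.08), all with intervals across 0. In this class at D5, 3 of the 6 differences were past counting error. Other genes were not compared in this way, so the count has no share over all genes beside it and nothing is read from it. The same comparison in cDC2-like nuclei at D0 and in cDC1-like and pDC-like nuclei on both days gave no difference past counting error, and other classes were not compared. Thus cDC2-like nuclei at D0 gave −0.13 (−0.37 to 0.11) for Itgb7, and cDC1-like nuclei at D5 gave −0.029 (−0.26 to 0.20) for Itgae, 0.005 (−0.20 to 0.21) for Cd24a and −0.82 (−2.89 to 0.65) for Epcam on 4 fragments. In cDC2-like nuclei at D0, 3 to 10 fragments in nuclei with Epcam, Cdh1, Cldn1 or Itgae RNA were too few for such a comparison. So were the 1 to 4 fragments in cDC1-like nuclei with Epcam or Cdh1 RNA, and the 0 to 6 in pDC-like nuclei with Epcam or Cldn1 RNA. For Cldn1, cDC1-like nuclei at D0 gave 0.66 (−0.03 to 1.29) on 24 fragments.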

How the data were processed

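The deposited files hold counts made by the authors: UMI counts per gene and nucleus, and counts per peak and barcode. The submitters' processing notes name Cell Ranger ARC 2.0.2 and mm10, and the matrix headers give 6.0.2 (RNA) and arc-2.0.2 (chromatin). Peaks were called per library. Peak counts were halved to fragments, since 70.4% (D0) and 75.1% (D5) of entries equal 2. The D5 joint matrix was tied to the RNA barcodes through identical gene counts, for 27873 of 27873 nuclei.

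A nucleus was kept from 1000 UMIs upward if mitochondrial transcripts made up no more than 10%, and those with a Scrublet score above 0.2 removed, 3296 (D0) and 6801 (D5). Clustering used scanpy 1.11.5 and igraph 0.11.9 (2000 variable genes, 30 components, 15 neighbours, resolution 1) and classes of at least 50 nuclei on a day. Naming thresholds were set with the clusters in view. Sums were scaled to CPM, with exact Poisson intervals for levels and exact conditional binomial intervals for ratios (scipy 1.17.1, 95%), both for counting error only. No test between days was possible. Scaling alternatives used edgeR 4.0.16 and DESeq2 1.42.0 in R 4.3.3, and the calculations were tested on simulated data.

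The 6 genes and all lists were chosen with earlier results of these data known. Named were the 6 genes, Krt19 and Krt7, 9 partners, listed genes with at least 2-fold differences past the interval in cDC2-like or cDC1-like nuclei, and the 3 genes nearest to each of the 6 among genes reaching 20 CPM. Genes that lead a cluster and markers of the biliary list are named as such. Other classes, settings and their effects are given at the end.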

Additional observations from a re-analysis of the deposited data

Results flagged for a closer look

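Cdh1 differed in direction between classes: its RNA log2 D5/D0 was 2.96 (2.36 to 3.65) in cDC2-like nuclei, −0.52 (−0.83 to −0.22) in pDC-like nuclei and −1.11 (−1.97 to −0.31) in NK cell-like nuclei. The NK cell-like Cdh1 level lay close to that of free RNA at D0 and below it at D5. Cldn1 was 0.58 (0.09 to 1.09) in cDC2-like nuclei and −0.59 (−0.85 to −0.34) in cDC1-like nuclei, although the former interval included 0 without doublet removal and after thinning. In each case the intervals lay on opposite sides of 0, and the difference between the classes was not tested, since there was 1 library per day.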

How the results depend on the processing

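No paired analysis was possible because there was 1 library per day. Over 11 alternatives the cDC2-like RNA log2 D5/D0 ran from 1.09 to 1.71 for Epcam, 2.66 to 3.30 for Cdh1, 0.26 to 1.30 for Cldn1, −0.15 to 0.67 for Itgae, −0.50 to −0.16 for Itgb7 and −0.04 to 0.28 for Cd24a. In this class 60 RNA and 35 accessibility values stayed within the counting interval of the main one, and 6 RNA and 1 accessibility value did not. Thinning to 1000 UMIs gave Epcam 1.09, and shares of nuclei at D5 of 4.65% for Epcam and 3.16% for Cdh1. TMM gave Itgb7 −0.16 and Cd24a 0.28, and Itgb7 accessibility 0.20. DESeq2 size factors gave Itgb7 −0.27. Without doublet removal the Epcam share was 10.9% and Cd24a in cDC1-like nuclei was −0.063, on the other side of 0. Chosen after the data were seen, clustering and naming only nuclei of at least 2000 UMIs gave Cldn1 1.30 and Itgae 0.67, and counting preDC-like nuclei as cDC2-like gave an Epcam share of 10.7%. Genes at least 2-fold apart in cDC2-like nuclei numbered 1408, 1124 under TMM and 8054 where 1 UMI sufficed. The cause of these shifts was not tested, except that TMM and size factors add a constant to a class and that thinning removes UMIs. Low UMI sums limit the D0 values, with 22 Cdh1 UMIs in cDC2-like nuclei and 7 in preDC-like nuclei.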
